A study of Homo sapiens with 3 samples.

Results

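The 4 inhibitor of DNA binding genes (ID1, ID2, ID3 and ID4) were described together with SMAD6, SMAD7, BAMBI and BMPR1B, 8 genes that are read as a group when bone morphogenetic protein (BMP) and TGF-β signals are discussed. They were taken by name from the count data, in which all 8 had a row in every library, out of 33423 genes listed in at least 1 library. Levels, detection per cell and co-expression are given for each library.

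BMP and TGF-β ligands bind pairs of type I and type II receptors, which phosphorylate receptor-regulated SMAD proteins that move with SMAD4 to the nucleus. ID genes are classical targets of BMP receptors. ID proteins have a helix-loop-helix domain but no DNA-binding region, and they hold basic helix-loop-helix factors away from DNA, which links them to growth and to a less differentiated state. The pathway also induces its own inhibitors, among them SMAD6, SMAD7 and BAMBI.

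The study followed how prostate cancer cells respond to enzalutamide (ENZ), a drug given against this cancer, and the data are single-cell RNA profiles from Drop-seq, in which each captured mRNA carries a unique molecular identifier (UMI). Cells of the LNCaP line kept in 10 µM ENZ for 168 h make up LNCaP–ENZ168. Cells of the VCaP line received the same dose for 48 h (VCaP–ENZ48) or the vehicle alone, 0.1% DMSO, for 48 h (VCaP parental). Both are established prostate cancer lines, both are labelled sensitive to ENZ, and no vehicle library of LNCaP was analysed here. Each group was 1 library from 1 culture, so differences between groups could not be checked in replicates and were not tested. All intervals are at 95% and cover counting error only.

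After filtering, 944 cells of LNCaP–ENZ168, 997 of VCaP parental and 947 of VCaP–ENZ48 remained, with 6313283, 19515202 and 14301287 UMIs. The median cell held 5389, 17817 and 11224 UMIs, so shares of cells are given after thinning each cell to 2000 UMIs. The luminal genes KRT8 and KRT18 were present in all 3 libraries. ERG, which VCaP carries as a fusion gene, had 0 UMIs in LNCaP–ENZ168, which allows a level of up to 0.584 CPM (UMIs scaled to a common total per library). Summed endothelial and leukocyte markers lay between 0 and 2.06 CPM, with the endothelial marker CDH5 at 0 in every library. Fibroblast markers summed to 1.90, 21.5 and 26.4 CPM, nearly all of it LUM in the VCaP libraries, while COL1A2 was at 0. Cell barcodes that ended in the letter N in place of a base made up 205, 859 and 820 of the kept cells, and each pair of libraries shared 1 barcode.

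The ID genes lie on 4 chromosomes, at chr20:31605283-31606515 for ID1, chr2:8678845-8684461 for ID2, chr1:23557926-23559501 for ID3 and chr6:19837370-19842197 for ID4 (GRCh38, Gencode). Their promoters are shown because ID1 and ID3 covaried from cell to cell in all libraries, whereas ID4 was read in the VCaP libraries and all but missing from LNCaP–ENZ168. The 120 bases just before the annotated start are printed 5′ to 3′ on the strand of the gene, from RefSeq on GRCh38.p14, with every TATAAA and CCAAT match on either strand in capitals. ID1 is chr20:31605163-31605282 on the plus strand, ID3 is chr1:23559502-23559621 on the minus strand and ID4 is chr6:19837250-19837369 on the plus strand.
ID1: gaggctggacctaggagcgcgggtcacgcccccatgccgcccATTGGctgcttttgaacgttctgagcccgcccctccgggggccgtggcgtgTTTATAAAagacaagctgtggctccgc
ID3: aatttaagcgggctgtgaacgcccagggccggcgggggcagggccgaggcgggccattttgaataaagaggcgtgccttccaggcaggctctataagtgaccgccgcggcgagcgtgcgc
ID4: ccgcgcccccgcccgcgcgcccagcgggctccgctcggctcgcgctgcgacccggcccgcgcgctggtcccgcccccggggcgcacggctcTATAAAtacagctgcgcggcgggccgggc

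The 3 stretches were rich in G and C, with 65.0% in ID1, 65.8% in ID3 and 83.3% in ID4 against a median of 60.0% over 35116 promoter windows. ID4 was thus above the upper quartile of 70.8%, and the other two were not. In the 250 bases before the start, TATAAA was found in ID1, ID4 and 1 of 3 windows of SMAD7 and in 10.7% of all windows. CCAAT was found in ID1, ID2, ID4, BAMBI and 2 of 3 windows of BMPR1B and in 32.01% of all windows, and the ID3 window held neither motif. The palindrome GTCTAGAC, a sequence that SMAD3 and SMAD4 bind, was found in SMAD6 among the 8 genes, 12 bases before its start, and in 0.182% of all windows. GGCGCC, which occurs in BMP-responsive elements, was found in BAMBI alone of the 8, at 3 places, and in 16.4% of all windows. A match describes these letters only.

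ID1 was read at 263 CPM (95% interval 251 to 276) in LNCaP–ENZ168, at 229 CPM (222 to 235) in VCaP parental and at 472 CPM (460 to 483) in VCaP–ENZ48. It was highest in VCaP–ENZ48, and the 3 intervals were apart. ID2 was read at 111 CPM (103 to 119), 517 CPM (507 to 528) and 788 CPM (774 to 803) in the same order, so the library lowest in ID2 was LNCaP–ENZ168 and not VCaP parental. ID3 stood at 202 CPM (191 to 214), 382 CPM (374 to 391) and 535 CPM (523 to 547), in the same order of libraries as ID2. For ID4, a member of the family that in several settings acts against the others, 2 UMIs in all of LNCaP–ENZ168 gave 0.317 CPM (0.0384 to 1.14), which lies below the floor of 3 UMIs. In the VCaP libraries it stood at 83.6 CPM (79.6 to 87.7) and 138 CPM (132 to 145). Among the ID genes, LNCaP–ENZ168 thus differed most from the VCaP libraries in ID4. A gene on the opposite strand overlaps an exon of ID2 (ID2-AS1) and of ID4 (LNC-LBCS); these had rows of their own with 23 to 90 UMIs and 11 to 44 UMIs per library, far fewer than ID2, though not than ID4 in LNCaP–ENZ168.

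Summed over the family, ID transcripts made up 576 CPM in LNCaP–ENZ168, 1212 CPM in VCaP parental and 1933 CPM in VCaP–ENZ48. The make-up of this sum differed between LNCaP–ENZ168 and the VCaP libraries. ID1 gave 45.6% of the ID UMIs in LNCaP–ENZ168 but 18.9% in VCaP parental and 24.4% in VCaP–ENZ48. ID2 gave the largest share in both VCaP libraries, 42.7% and 40.8%, and 19.2% in LNCaP–ENZ168. The 3′ end of each transcript is read in Drop-seq, so these UMIs count molecules and were not divided by gene length.

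The inhibitory SMADs, which compete with or block receptor-regulated SMADs at the receptor, were read at low levels. SMAD6, which acts chiefly in the BMP branch, had 13, 16 and 28 UMIs in the same order of libraries, or 2.06, 0.820 and 1.96 CPM. Its intervals overlapped for each pair except that VCaP parental (0.469 to 1.33 CPM) and VCaP–ENZ48 (1.30 to 2.83 CPM) did so only at their ends. SMAD7, which acts in both branches, was read at 12.04 CPM (9.48 to 15.1), 6.56 CPM (5.47 to 7.80) and 9.16 CPM (7.66 to 10.9), and the interval of VCaP–ENZ48 overlapped those of both other libraries.

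BAMBI, a membrane protein built like a type I receptor without a kinase, had 82 UMIs in LNCaP–ENZ168 (13.0 CPM, 10.3 to 16.1), 4 UMIs in VCaP parental (0.205 CPM, 0.0558 to 0.525) and 57 UMIs in VCaP–ENZ48 (3.99 CPM, 3.02 to 5.16). The 3 intervals were apart, with VCaP parental near the floor of 0.154 CPM. BMPR1B, a type I BMP receptor, ran in the other direction between the VCaP libraries. It stood at 39.4 CPM (34.7 to 44.7), 18.5 CPM (16.7 to 20.6) and 3.29 CPM (2.41 to 4.37), from 249, 362 and 47 UMIs.

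**Figure D1:**
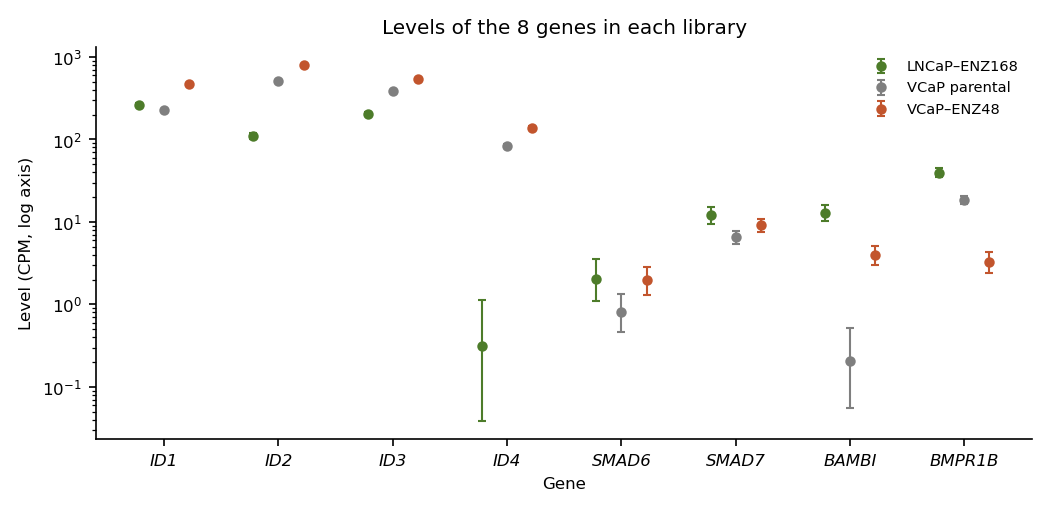
Level of each of the 8 genes (CPM, log axis) in the 3 libraries, with 1 point per library and bars for the exact Poisson 95% interval. The points of VCaP–ENZ48 lie above those of VCaP parental for every gene but BMPR1B, and ID4 in LNCaP–ENZ168 rests on 2 UMIs.

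The VCaP libraries compare the drug with its vehicle in 1 line after 48 h. All 4 ID genes were higher in VCaP–ENZ48, by 1.04 for ID1 (0.99 to 1.10), 0.61 for ID2 (0.57 to 0.65), 0.48 for ID3 (0.44 to 0.53) and 0.72 for ID4 (0.63 to 0.82) on the log2(CPM + 1) scale, each with the interval of its ratio of counts. Among members whose mean over the pair reached 10 CPM, 5 in all, ID1 was at least 2-fold higher, where 8.19% of all 7729 genes were so, and BMPR1B at least 2-fold lower, where 6.77% were so. ID1 sat just inside this limit, and its interval reached below it. The other 3 ID genes were inside 2-fold, and all genes had a median of -0.07 with quartiles of -0.44 and 0.34, so each ID gene lay above the upper quartile.

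Levels relative to the library total depend on the scaling. TMM factors moved the median of all genes in this pair by -0.27 and gave 0.75, 0.32, 0.19 and 0.43 for ID1 to ID4. Leaving mitochondrial and ribosomal protein genes out of the totals gave 1.18, 0.74, 0.62 and 0.85. With cells limited to barcodes that ended in a base (138 and 127 cells), ID1 to ID4 were higher by 0.97, 0.47, 0.56 and 0.68. All 4 stayed higher in VCaP–ENZ48 under every scaling and cell filter tried, apart from ID2 among cells called G2M.

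BMPR1B was lower in VCaP–ENZ48 by a log2 ratio of -2.19, with a ratio of counts of -2.50 (-2.97 to -2.06). Its mean of 10.9 CPM was just over the minimum and reached it only through VCaP parental (18.5 CPM against 3.29 CPM). Only 147 of the 7729 genes had a lower ratio. BAMBI, SMAD6 and SMAD7 were under the minimum, and their ratios are given as values. BAMBI went from 4 to 57 UMIs, a log2 ratio of 2.05 with a pseudocount and of 4.28 (2.85 to 6.21) without it. SMAD6 had a log2 ratio of 0.70, with a ratio of counts of 1.26 (0.32 to 2.24), and turned to -0.16 with barcodes that ended in a base. SMAD7 had 0.43, with a ratio of counts of 0.48 (0.12 to 0.84).

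**Figure D2:**
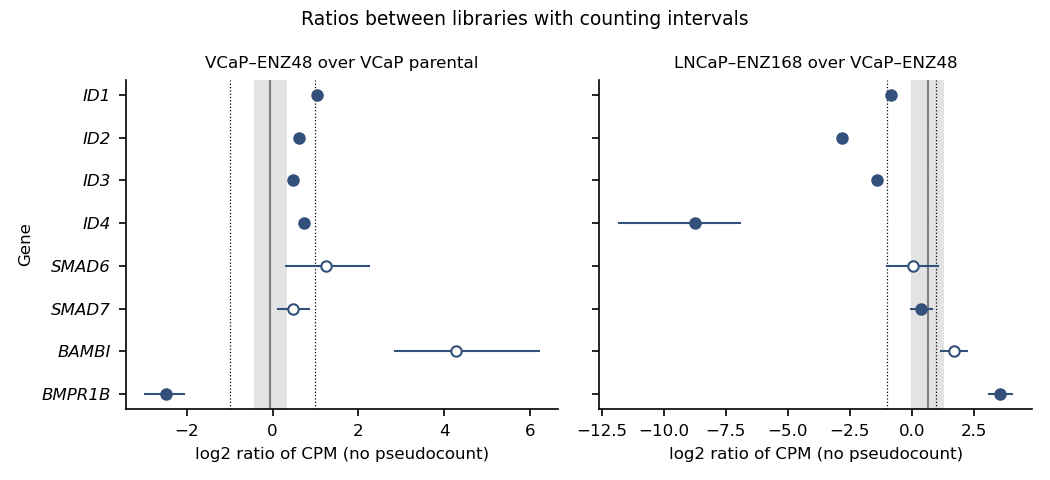
Log2 ratio of CPM of each gene, without a pseudocount, for VCaP–ENZ48 over VCaP parental (left) and LNCaP–ENZ168 over VCaP–ENZ48 (right), with exact 95% counting intervals as lines. Open points are genes with a mean under 10 CPM, the grey line and band are the median and quartiles of all genes on the log2(CPM + 1) scale, and dotted lines mark 2-fold. The ID genes lie right of the band on the left and left of it on the right, and BMPR1B does the reverse.

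The other line under the drug was LNCaP–ENZ168, but relative to VCaP–ENZ48, line, time in drug and preparation differ together and cannot be told apart. Of 6 members that reached a mean of 10 CPM, 3 were at least 2-fold lower in LNCaP–ENZ168, where 11.1% of all 8854 genes were so, and 1 was at least 2-fold higher, where 35.5% were so. The lower genes were ID2 (-2.82, -2.94 to -2.72), ID3 (-1.40, -1.49 to -1.32) and ID4, whose 2 UMIs gave a ratio of counts of -8.77 (-11.8 to -6.92). ID4 reached the minimum only through VCaP–ENZ48, at 138 CPM. ID1 was lower by less, with -0.84 (-0.92 to -0.76). All genes had a median of 0.65 in this pair, which TMM factors moved by -0.55.

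BMPR1B was the higher member, with 3.24 on the log2(CPM + 1) scale. It reached the minimum only through LNCaP–ENZ168 (39.4 CPM against 3.29 CPM in VCaP–ENZ48). BAMBI had a ratio of 1.49 and SMAD6 of 0.05, both under the minimum. SMAD7 had 0.36, with an interval of counts from -0.03 to 0.81, and -0.12 under TMM scaling, so no difference was detectable at this depth.

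Detection per cell followed the levels. After thinning, 34.4% of 943 LNCaP–ENZ168 cells (31.3 to 37.5), 30.3% of 997 VCaP parental cells (27.5 to 33.2) and 48.1% of 917 VCaP–ENZ48 cells (44.8 to 51.4) had a UMI of ID1. The shares of the first 2 libraries overlapped within their intervals, and VCaP–ENZ48 stood above both. Before thinning, the shares were 59.3%, 78.5% and 83.4%. ID2 was found in 17.1%, 53.1% and 67.4% of thinned cells and ID3 in 29.5%, 47.9% and 56.5%. ID4 was found in 13.8% and 20.4% of the thinned VCaP cells and in 1 of 943 LNCaP–ENZ168 cells.

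The number of ID genes seen in the same thinned cell moved with these shares. None of the 4 was seen in 43.1% of LNCaP–ENZ168 cells, 21.0% of VCaP parental cells and 10.4% of VCaP–ENZ48 cells. At least 3 of 4 were seen in 36, 160 and 295 cells. The feedback genes were sparse at this depth, with SMAD6, SMAD7 and BAMBI each in at most 2.76% of thinned cells of any library. BMPR1B was found in 6.57% of LNCaP–ENZ168 cells, 3.31% of VCaP parental cells and 0.763% of VCaP–ENZ48 cells.

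**Figure D3:**
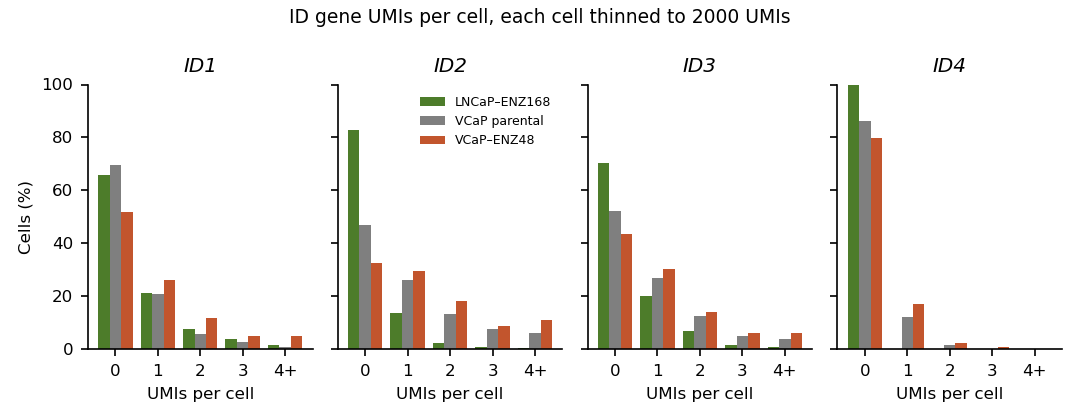
Share of cells (%) with 0, 1, 2, 3 or at least 4 UMIs of each ID gene after each cell was thinned to 2000 UMIs, by library. Cells without a UMI of ID2 go from 82.9% in LNCaP–ENZ168 to 46.9% in VCaP parental and 32.6% in VCaP–ENZ48.

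ID1, ID2 and ID3 were spread less evenly over cells than most genes of like level. Their ratio of variance to mean over thinned cells lay between 1.43 and 2.02 in the 3 libraries, higher than in 91.6% to 99.2% of the genes whose mean was within 1.5 times theirs. For ID1 in VCaP–ENZ48 it was 2.02 against a median of 1.17 over 205 such genes. The tenth of cells with the most ID1 UMIs held 50.4% of them in LNCaP–ENZ168, 54.1% in VCaP parental and 45.1% in VCaP–ENZ48. Such a share also depends on the mean count, which was 0.554, 0.441 and 0.911 UMIs per thinned cell in the same order. For ID4 the ratio was 1.06 in VCaP parental and 1.22 in VCaP–ENZ48, higher than in 75.9% and 96.0% of the genes of like mean.

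ID1, ID2 and ID3 also rose and fell together from cell to cell in the VCaP libraries. Co-expression is described here by Pearson's r over the thinned cells of 1 library. In VCaP parental, ID1 and ID3 had r = 0.237, ID1 and ID2 r = 0.215 and ID2 and ID3 r = 0.209. In VCaP–ENZ48 the values were 0.275, 0.246 and 0.236. For each of these 3 genes, the other two were the closest of all genes found in at least 10% of cells, 2784 genes in VCaP parental and 2501 in VCaP–ENZ48. The r values are small, but 99% of genes had an r with ID1 of at most 0.107 in VCaP–ENZ48 and 0.102 in VCaP parental. As counts, 287 VCaP–ENZ48 cells (31.3%) held both ID1 and ID3, and ID3 was found in 65.1% of the cells with ID1 and in 48.5% of those without.

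In LNCaP–ENZ168, ID1 and ID3 had r = 0.213, and each was the first or second neighbour of the other among 3693 genes. QSOX1, a secreted thiol oxidase, was closer to ID1 (r = 0.227), and SELENBP1, a selenium-binding protein, came next for ID1 (r = 0.198) and was second for ID3 (r = 0.174), followed by the bZIP factor CREBZF (r = 0.143). ID2 was found in 17.1% of thinned cells there, under the 20% asked of a member for its own neighbours. It had r = 0.0726 with ID1, at rank 138, and followed CREBZF for ID3 (r = 0.142). ID4 was seen in at least 20% of thinned cells in VCaP–ENZ48 alone. Its closest genes were RFC1 (r = 0.157), a subunit of the clamp loader, ID1 (r = 0.130) and EIF2AK2 (r = 0.124), an RNA-activated kinase. ID2 and ID3 ranked 37 and 52 there. In VCaP parental, ID4 had r = 0.0375 with ID1, 0.0629 with ID2 and 0.0744 with ID3.

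**Figure D4:**
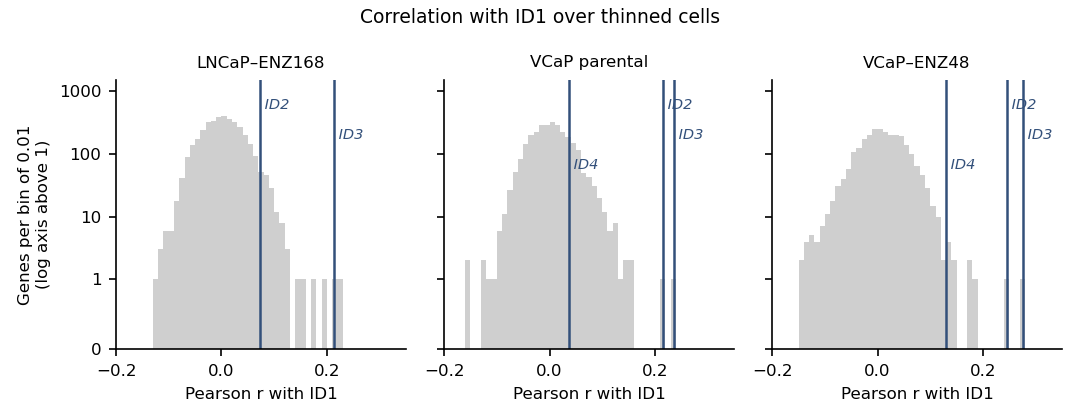
Number of genes per bin of 0.01 of Pearson's r with ID1 over thinned cells (y axis logarithmic above 1), with lines at the r of the other ID genes, by library. ID3 lies at the right end of all 3 distributions, ID2 in the VCaP libraries, and ID4 is not drawn for LNCaP–ENZ168.

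The third neighbour of the ID genes in the VCaP libraries was often an immediate early gene, a class that cells switch on within minutes of serum or handling. FOS was next for ID1 in VCaP parental (r = 0.159) and for ID2 (r = 0.203) and ID3 (r = 0.162) in VCaP–ENZ48, and IER2 was next for ID1 there (r = 0.186). The histone gene H4C3 (r = 0.184) and the kinesin gene KIF22 (r = 0.122) took this place for ID2 and ID3 in VCaP parental. Over the 9 listed immediate early genes found in enough VCaP–ENZ48 cells, r with ID1 ran from 0.00929 to 0.186 with a median of 0.0867, above the median of 0.00916 over all genes. The medians with ID2 and ID3 there were 0.0885 and 0.0898. In VCaP parental, with 7 such genes, r with ID1 ran from -0.0666 to 0.159. The medians there were lower, at 0.0623 with ID1, 0.0235 with ID2 and 0.0303 with ID3. Between the VCaP libraries the list did not move one way, with 5 of 14 genes at least 2-fold higher and 3 lower, where 8.19% and 6.77% of all genes were so. EGR1 was higher by 2.68, ATF3 was lower by a log2 ratio of -1.66, and FOS, the most abundant, had -0.31. The part of this class in the ID values was not tested.

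Phase calls differed between the libraries. G1 was called for 75.6% of LNCaP–ENZ168 cells, 29.1% of VCaP parental cells and 86.9% of VCaP–ENZ48 cells, and G2M for 10.6%, 32.1% and 2.40%. In VCaP parental, the ID genes were higher in cells called G2M than in cells called G1, by 0.70 for ID1 (0.59 to 0.82), 0.51 for ID2, 0.49 for ID3 and 0.52 for ID4 on the log2 scale. These values lay above those of 88.6% to 92.5% of 7348 genes. In LNCaP–ENZ168 the direction was the opposite, with -0.97 for ID1 (-1.26 to -0.70), -0.40 for ID2 and -0.48 for ID3. Of 9039 genes there, 4.37% had a lower value than ID1, 22.1% than ID2 and 18.0% than ID3. In VCaP–ENZ48, with 22 cells called G2M, ID1 had -0.21 (-0.46 to 0.03), ID2 -0.43 (-0.63 to -0.23) and ID3 0.14 (-0.08 to 0.34), and no single direction was seen.

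Within G1, where VCaP–ENZ48 had 797 cells and VCaP parental 290, the ID genes were higher in VCaP–ENZ48 by 1.40 for ID1 (1.31 to 1.51), 0.88 for ID2 (0.82 to 0.95), 0.73 for ID3 (0.65 to 0.81) and 0.95 for ID4 (0.80 to 1.13). These differences were larger than over all cells. Within S, they were 1.07, 0.68, 0.79 and 0.81. Within G2M, ID1, ID3 and ID4 were higher by 0.50, 0.37 and 0.75, and ID2 had -0.06 (-0.27 to 0.14). BMPR1B was lower within G1 (-2.03) and within S (-2.11), and had 0 UMIs in the VCaP–ENZ48 cells called G2M.

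**Figure D5:**
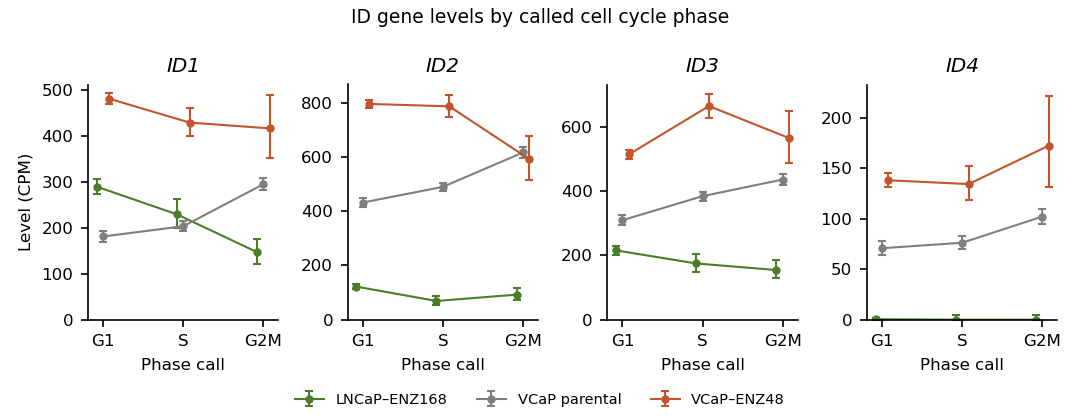
Level of each ID gene (CPM) in cells called G1, S and G2M, by library, with exact Poisson 95% intervals. In VCaP parental the 4 genes are highest in G2M, in LNCaP–ENZ168 ID1 goes from 290 CPM in G1 to 147 CPM in G2M, and ID4 is near 0 in LNCaP–ENZ168.

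The rest of the pathway was read from lists of ligands, receptors, SMADs, antagonists, regulators and targets. Of all genes, 8.19% were at least 2-fold higher in VCaP–ENZ48 than in VCaP parental and 6.77% at least 2-fold lower. Between the VCaP libraries, few ligands reached a mean of 10 CPM over the pair, the limit for every list count here. BMP7 was alone in this among 10 BMP and GDF ligands found, at 24.3 CPM in VCaP parental and 23.8 CPM in VCaP–ENZ48, a log2 ratio of -0.03 (-0.23 to 0.18). GDF15, a stress-induced ligand under this limit, was at 11.0 CPM in VCaP parental and 4.61 CPM in VCaP–ENZ48 (-1.10). Of 9 TGF-β, activin and nodal ligands, INHBB, which encodes the β subunit of activin B, was alone and higher by 1.28, from 7.02 to 18.5 CPM. Of 15 other receptors and co-receptors, 3 were read and none changed 2-fold. BMPR2, the type II receptor that pairs with BMPR1B, was at 18.1 CPM in VCaP parental and 33.6 CPM in VCaP–ENZ48 (0.86), and the co-receptor ENG had -0.12.

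Of the 6 receptor-regulated and common SMADs, 4 were read between the VCaP libraries. SMAD9, a BMP-branch SMAD, was at least 2-fold higher in VCaP–ENZ48, from 16.1 to 35.9 CPM (1.11), and SMAD5, the most abundant, had -0.24. None of 5 antagonists and ligand-binding proteins read was past 2-fold. The most abundant, FSTL1, had 0.34, and LTBP3, which binds latent TGF-β, had 0.88. Of 17 intracellular regulators, 1 was past 2-fold, and the list had a median of 0.02. This was PMEPA1, a membrane adaptor that limits TGF-β signals, from 212 to 98.5 CPM (-1.10). SKIL, a corepressor of SMADs, had 0.89, and FKBP1A, which binds type I receptors, had 0.02.

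Among other BMP or TGF-β targets, 2 of 4 read were at least 2-fold higher in VCaP–ENZ48, where 8.19% of all genes were so, and none lower, where 6.77% were so. These were JUNB (1.25), which is also an immediate early gene, and THBS1 (1.00, from 25.9 to 52.9 CPM), a matrix protein that activates latent TGF-β. THBS1 lay at the limit, and its interval (0.87 to 1.19) reached below it. CDKN1A had -0.18 and CCN1 -0.19. Of 5 partners and regulators of ID proteins read, 1 was past 2-fold. This was USP1, a deubiquitinase known to stabilise ID proteins, which went from 150 to 58.7 CPM (-1.34) while the ID transcripts were higher, and CDKN2A had 0.10.

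Between LNCaP–ENZ168 and VCaP–ENZ48, the lists moved in both directions. BMP7 had 0 UMIs in LNCaP–ENZ168, and GDF15 was at 588 CPM there and 4.61 CPM in VCaP–ENZ48 (6.71). GDF11 was higher in LNCaP–ENZ168 (2.14) and INHBB was lower (-1.26). BMPR2 was higher (1.80), ACVR1B, an activin receptor, had -0.56, SMAD1 was higher (1.64) and SMAD9 was lower (-1.45). FSTL1 (-4.42) and THBS1 (-4.57) were lower, and FN1, which encodes fibronectin, was higher (4.64). Of 21 regulators read, 9 were at least 2-fold higher, with STUB1, a ubiquitin ligase, at 2.47, and 1 lower, PMEPA1, at -2.09. USP1 was higher (1.14), the opposite of its difference between the VCaP libraries. With 35.5% of all genes at least 2-fold higher in this pair and 11.1% at least 2-fold lower, these shares describe the 2 libraries.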

How the data were processed

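The authors aligned the Drop-seq reads of these 3 libraries to GRCh38 with STAR and Gencode annotation and counted them with Drop-seq tools and Picard under default settings, expecting 1000 cells per sample. What they deposited are UMI counts of each gene in each barcode, not normalized. How strand was counted is not given in the sources used here. The 8 genes and the 9 pathway lists (147 distinct genes) were chosen with earlier results of these data known.

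Cells with at least 300 genes, 500 UMIs and at most 25% mitochondrial UMIs were kept. Doublets were not removed. Of the cell type markers, 1 is not reported here. UMIs were summed over cells and scaled to the library total (CPM). A gene missing from a library was counted as 0. Ratios are log2(CPM + 1), counted for genes whose mean over the pair reached 10 CPM and called past 2-fold. A gene could reach this mean through a single library. Intervals are exact (Poisson for levels, conditional for ratios, Clopper-Pearson for shares), and the floor is 3 UMIs. Cells were thinned without replacement to 2000 UMIs, which left out 1, 0 and 30 cells. Correlations used log(1 + thinned count) over genes found in at least 10% of cells. Phases came from CellCycleScoring of Seurat on all thinned cells together.

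Beside the members, pathway genes were named for the highest mean and the largest rise and fall in each list, and the 3 closest genes for each member found in at least 20% of thinned cells. Promoters of all 8 genes were matched by symbol in RefSeq. SMAD7 and BMPR1B had 3 windows each. The ID2 window lies in an exon of a longer Gencode transcript and is not printed. Gene positions come from a later Gencode version than the authors used. Alternatives covered cell filters, barcodes, scaling, pseudocount, minimum, fold and thinning. The steps were tested on simulated data. Tools were Seurat 5.3.0, edgeR 4.0.16 and DESeq2 1.42.0 (scaling factors) in R 4.3.3, and scipy 1.17.1 and numpy 2.4.6 in Python 3.11.15.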

Additional observations from a re-analysis of the deposited data

How the results depend on the processing

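With 1 library per group, nothing here separates the groups from differences between preparations. No paired analysis was possible because there was a single library in every group. Between the VCaP libraries, the count of members at least 2-fold higher, 1 in the report, was 0 with barcodes that ended in a base, 0 under TMM scaling, 0 under median-of-ratios scaling, 2 with a minimum of 1 CPM and 3 at 1.5-fold. The count lower, also 1, was 0 with barcodes that ended in a base and 0 with a minimum of 50 CPM. ID1 lay close to the fold and BMPR1B to the minimum. Between the lines, the count higher, 1 in the report, was 2 with totals without mitochondrial and ribosomal protein genes, 2 with a minimum of 1 CPM and 0 with a minimum of 50 CPM, and the count lower was 3 or 4. The share of all genes past the fold was not taken at these other settings. The counts therefore show only how they depend on the setting. These alternatives included cells called G1 but not cells called S or G2M. Over them, the ratio between the VCaP libraries ran from 0.75 to 1.40 for ID1, 0.32 to 0.88 for ID2, 0.19 to 0.73 for ID3, 0.43 to 0.95 for ID4 and -2.48 to -1.64 for BMPR1B. It was lowest under TMM scaling and, for the ID genes, highest in cells called G1. Some ratios within the other phases fell outside these ranges. Within G2M, ID1 had 0.50, ID2 -0.06 and BMPR1B, with 0 UMIs in VCaP–ENZ48, -4.47. Within S, ID3 had 0.79. The correlation of ID1 with ID3 ran from 0.194 to 0.392 in VCaP parental and 0.229 to 0.393 in VCaP–ENZ48. For ID1 with ID2 it ran from 0.169 to 0.381 and 0.209 to 0.297 in the same order. For ID2 with ID3 it ran from 0.106 to 0.378 and 0.185 to 0.320. Ranks among all genes were taken at the main setting alone. Depth limits SMAD6, SMAD7 and BAMBI, with 4 to 131 UMIs per library, ID4 in LNCaP–ENZ168, with 2, and BMPR1B in VCaP–ENZ48, with 47.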
